A study of Mus musculus with 27 samples.

Results

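The voltage-gated calcium channel alpha-1 subunits are the pore-forming proteins of the channels that let calcium into a cell when its membrane depolarizes. The set described here holds the 10 mouse genes of this family, Cacna1a, Cacna1b, Cacna1c, Cacna1d, Cacna1e, Cacna1f, Cacna1g, Cacna1h, Cacna1i and Cacna1s, taken by name from 33924 gene symbols in the count table. The family itself was chosen by a measured value, since the level of Cacna1a in Arid2 knockout (KO) and Braf lines in vehicle was known when it was proposed. That contrast is therefore given as a description, with no test, for all 10 members. Of the 10 genes, 7 passed the filter on low counts in the fit of the 24 tumor line libraries, and 9 passed it in the fit of all 27 libraries. Cacna1e, Cacna1f and Cacna1s were too low for the first fit, and Cacna1f for both.

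RNA was sequenced from 12 mouse thyroid tumor cell lines, each grown from a dissected tumor and from 3 libraries marked wildtype and untreated. All 12 lines carry Braf(V600E), a mutant kinase that keeps the MAPK pathway active. The Braf lines (B47275, B48051 and B52482) carry it alone, and the others add a KO of Arid1a (BA45198, BA47473 and BA49112), Arid2 (AB51189, AB52980 and AB55694) or Smarcb1 (BS53736, BS53958 and BS53965), genes of SWI/SNF chromatin remodeling subunits. Each line gave 1 library in vehicle (Trappsol) and 1 under CH5126766 (CKI), which blocks the kinases RAF and MEK, given for 8 days at 300 nM, so that the 27 libraries form 9 groups of 3. The protocol also names bovine TSH, but its wording does not settle which arms were given it. The labels give no promoter, Cre driver or age, call the wildtype source a tumor cell line as well, and say nothing of clonality.

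Voltage-gated calcium channels fall into classes by their alpha-1 subunit. L-type channels (Cacna1s, Cacna1c, Cacna1d and Cacna1f) couple depolarization to muscle contraction, secretion and sensory signaling, and P/Q-, N- and R-type channels (Cacna1a, Cacna1b and Cacna1e) chiefly drive transmitter release from neurons. T-type channels (Cacna1g, Cacna1h and Cacna1i) open near the resting potential. Beta and alpha-2-delta subunits bring the L-type and the P/Q-, N- and R-type pores to the membrane and set how they gate, and thyroid C cells are known for calcium channel use in calcitonin release.

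Upstream sequence is shown for Cacna1i and Cacna1b, 2 members whose levels differed between treatments or genotypes below. RefSeq promoter entries (build GRCm38.p6) matched 7 of the 10 members, and those of Cacna1a, Cacna1g and Cacna1h were not matched. Each run holds the 250 bases before the annotated start, 5′ to 3′ on the gene's strand, with CpG dinucleotides in capitals.
Cacna1i, chr15:80286988-80287237 (plus strand): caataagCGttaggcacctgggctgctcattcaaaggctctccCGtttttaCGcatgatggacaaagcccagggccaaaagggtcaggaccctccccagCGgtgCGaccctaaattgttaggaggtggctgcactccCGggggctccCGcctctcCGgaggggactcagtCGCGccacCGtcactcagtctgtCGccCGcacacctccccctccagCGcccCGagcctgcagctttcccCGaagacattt
Cacna1b, chr2:24763153-24763402 (minus strand): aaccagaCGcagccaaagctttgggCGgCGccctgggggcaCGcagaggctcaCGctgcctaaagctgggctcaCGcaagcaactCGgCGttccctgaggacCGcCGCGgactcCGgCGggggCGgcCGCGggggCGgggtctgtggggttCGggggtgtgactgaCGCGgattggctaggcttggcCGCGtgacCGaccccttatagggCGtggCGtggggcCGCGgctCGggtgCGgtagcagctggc
The Cacna1i window held 16 CpG sites at 62.4% GC and the Cacna1b window 29 at 72% GC, against medians of 6 sites and 52.4% over 32851 promoter windows of the same length. Both strands were searched for an AP-1 motif (TGANTCA), a cyclic AMP response element (TGACGTCA) and an Ets motif (CCGGAAGT), which do not overlap as written and were found in 6.75%, 1.55% and 2.88% of all windows. Neither window held a match to these letters.

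The levels below are counts scaled to library size (CPM, with TMM-scaled sizes). Total counts lay between 18417255 and 27257703 per library, apart from the CKI libraries of BS53958 (11684983) and BS53965 (2884130), where 1 count is worth more. Smarcb1 was at 0.461 ± 0.612 CPM (SD, n = 3) in its KO vehicle libraries and 74.9 ± 9.06 CPM in Braf vehicle libraries, Arid1a at 80.5 ± 13.8 and 132 ± 3.86 CPM, and Arid2 at 94 ± 14.3 and 97.6 ± 10.2 CPM, so the Arid2 KO label could not be checked from whole-gene counts. Thyroid follicle markers summed to between 229000 and 348000 CPM in the wildtype libraries and to at most 983 CPM in the tumor lines, where 2 to 5 of the 8 markers exceeded 1 CPM. In bulk RNA, fewer cells of a type and less RNA per cell cannot be told apart.

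**Figure D1:**
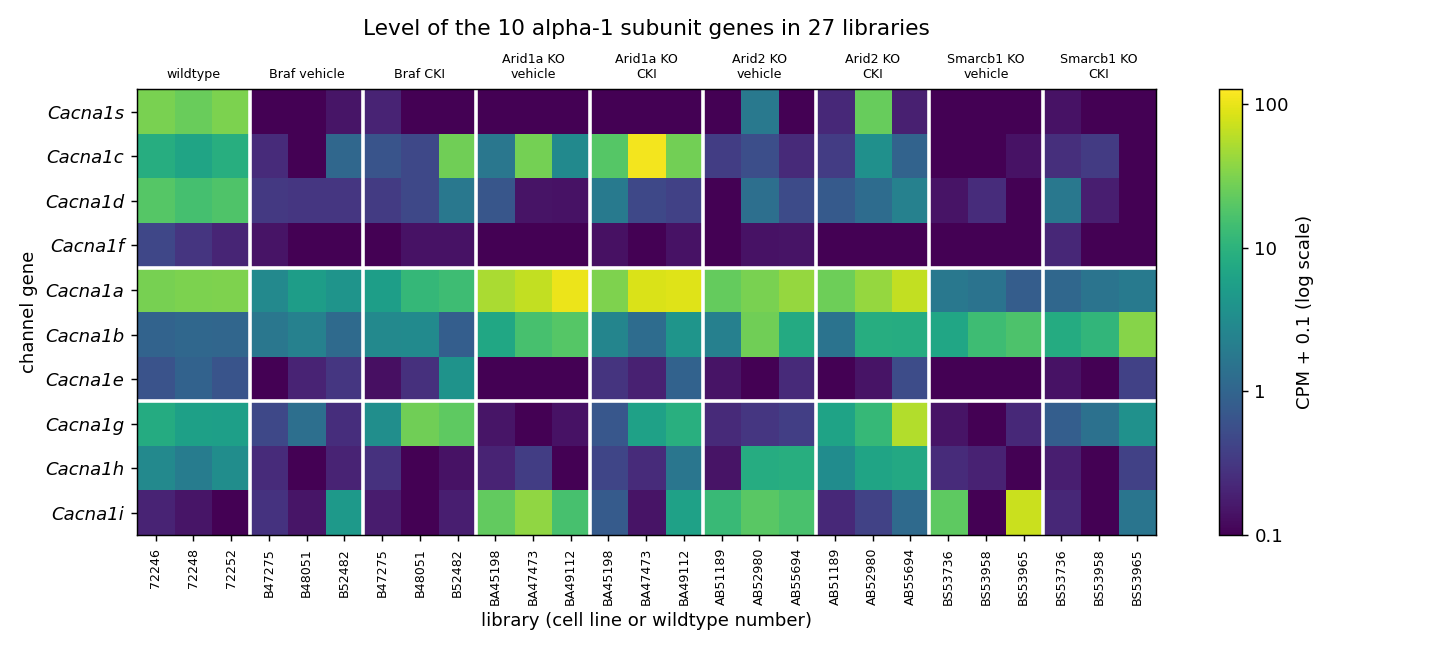
Level of each alpha-1 subunit gene (rows, L-type at the top, then P/Q-, N- and R-type, then T-type) in each of the 27 libraries (columns, by group), as CPM + 0.1 on a log color scale. The wildtype libraries hold Cacna1s, Cacna1d and Cacna1a at 15.2 to 32 CPM, Cacna1g is brighter and Cacna1i darker under CKI than in vehicle (Cacna1i is at 0 in both arms of BS53958), and Cacna1s is bright in line AB52980 alone among the tumor lines.

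Which family member was most abundant differed between groups. Divided by the longest coding transcript (6.08 to 14.9 kb, GENCODE), mean levels in the wildtype libraries were highest for Cacna1s (4.5 CPM per kb), Cacna1a (3.86) and Cacna1d (1.98). Cacna1a had the highest level per kb in Braf vehicle (0.502), Arid1a KO vehicle (9.22) and Arid2 KO vehicle (3.95) libraries. In Braf CKI libraries Cacna1g led at 2.04 CPM per kb, followed by Cacna1a at 1.29. In Smarcb1 KO libraries Cacna1i led in vehicle (3.14) and Cacna1b under CKI (1.82), and the mean of Cacna1a was at most 0.179 CPM per kb. The lead of Cacna1i held in BS53736 and BS53965, while BS53958 held no Cacna1i and was led by Cacna1b (1.42). Without BS53965 the Cacna1i mean was 1.1, beside 1.05 for Cacna1b, and the Cacna1b mean under CKI was 0.98. In Braf CKI line B47275 Cacna1a (0.672) was above Cacna1g (0.396). Of the summed level per kb over the 10 genes, Cacna1a made up 65.2% in Arid1a KO vehicle and 3.47% in Smarcb1 KO vehicle libraries.

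Genes were called with edgeR's quasi-likelihood F test where the p, adjusted by Benjamini-Hochberg across every gene tested, was under 0.05, and log2 changes are given ± SE. Without the line block described below, a p-value is set by how far lines grown from different tumors lay apart, over both arms, and with it by the spread left within lines. The knockouts were compared with Braf lines within each arm, and the 3 comparisons of an arm share their Braf libraries. In vehicle, 1 of the 7 members tested was called in Arid1a KO lines (Cacna1a, higher, where 3.63% of all genes tested were called). In Smarcb1 KO lines 2 were called (Cacna1b higher and Cacna1a lower, where 18.1% were called). Both Cacna1a contrasts use the Braf values behind the choice of the family. Under CKI, 1 was called higher in Arid1a KO (Cacna1a, 0.736% of all genes) and 4 in Smarcb1 KO lines (1 higher and 3 lower, 23.1% of all genes). The Braf lines are the same in both arms. In Arid2 KO lines under CKI edgeR called 0 of 7 members (0.064% of all genes), with 2 at an unadjusted p under 0.05 and 2 called by DESeq2. In the contrast that chose the family, Arid2 KO against Braf in vehicle, 0.0512% of all genes were called. With 7 members tested, nothing particular to the family is read from counts of 1 or 2.

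CKI was compared with vehicle in the same lines, in a fit without and a fit with the line as a block. Averaged over the 4 genotypes, 4 of the 7 members were called without the block (3 higher and 1 lower, where 27.2% of all genes were called) and 5 with it (3 higher and 2 lower, 42.9% of all genes). Of the higher members, Cacna1g and Cacna1d passed the filter on low counts through their CKI libraries, which favors a rise. Within Arid1a KO lines, 1 member was called without the block (13.9% of all genes) and 4 with it (32.3%). Within Arid2 KO lines, 1 was called without it (0.141%) and 2 with it (6.27%). In Braf lines edgeR called 0 members without the block (0% of all genes, with 1744 genes at an unadjusted p under 0.05 and 315 called by DESeq2) and 3 with it (2.48%), Cacna1a among them. Of the members, 4 had an unadjusted p under 0.05 in Braf lines and DESeq2 called 1. In Smarcb1 KO lines edgeR called 0 without the block (0.032% of all genes, with 3 members at an unadjusted p under 0.05 and 2 called by DESeq2) and 1 with it (1.06%).

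No difference between a knockout's CKI response and that of the Braf lines was called for any of the 7 members tested, by edgeR with or without the block or by DESeq2. Without the block 0% of all genes were called in each of the 3 differences, with 801, 124 and 659 genes at an unadjusted p under 0.05 for Arid1a, Arid2 and Smarcb1 KO, and with it 0.147%, 0% and 0.032% were called. At an unadjusted p under 0.05 without the block stood 2 members for Arid1a KO and 0 for each of the others. The members' responses are thus not shown to differ between genotypes, and a call in one genotype beside none in another is no such difference.

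Cacna1a, the pore of P/Q-type channels, was high in Arid1a KO and Arid2 KO lines, low in Braf lines and lowest in Smarcb1 KO lines. In Braf vehicle libraries it was at 2.81, 5.26 and 3.87 CPM (lines in the order given above), and in Arid1a KO vehicle libraries at 51.2, 65.6 and 102 CPM. The groups do not overlap, and the difference was 4.2 ± 0.51 on the log2 scale. It is given without a p, because the low Braf vehicle values are among those by which the family was chosen. Fibroblast markers moved with this contrast, summing to between 854 and 3390 CPM in Arid1a KO vehicle libraries (5 or 6 of 6 markers over 1 CPM, none at 0) and between 5.15 and 173 CPM in Braf vehicle libraries. Their part in the result was not tested. C cell and neuroendocrine markers summed to between 1.66 and 9.76 CPM in the former and between 7.07 and 37.5 CPM in the latter.

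Under CKI, Cacna1a was at 5.33, 11.5 and 13.8 CPM in Braf and at 31.3, 84.6 and 89.9 CPM in Arid1a KO lines. The ranges again lie apart, with a difference of 2.76 ± 0.48 (adjusted p = 0.0169). The call is not independent of the choice of the family, since the Braf CKI libraries come from the same lines as the Braf vehicle values. This call was lost without line BA47473 (adjusted p = 0.0707), BA49112 (0.117), B47275 (0.0693) or B48051 (0.0843), and in a fit of the compared groups alone (0.149). In Arid2 KO lines Cacna1a was at 23.4, 30.1 and 40.4 CPM in vehicle, the values by which the family was chosen, and at 26.3, 40.6 and 65 CPM under CKI. The CKI values lie above all 3 Braf CKI libraries, but the difference of 2.11 ± 0.47 did not pass (adjusted p = 0.134). They come from the same lines as the vehicle values and are no independent support of them.

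In Smarcb1 KO lines Cacna1a was at 1.66, 1.41 and 0.732 CPM in vehicle and 0.984, 1.48 and 1.78 CPM under CKI. All 6 libraries lie below all 6 Braf libraries. Against Braf, the log2 change in vehicle was -1.66 ± 0.48, given without a p because it uses the Braf vehicle values behind the choice of the family. Under CKI, against the same Braf lines, it was -2.93 ± 0.52 (adjusted p = 0.00136). The CKI call held under all 12 alternatives run. The vehicle change did not pass the threshold without B48051, BS53958 or BS53965, or in a fit of the compared groups alone.

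With CKI, Cacna1a was higher than in vehicle in 3 of 3 Braf lines (1.37 ± 0.46, and 1.31 ± 0.3 with the block). These changes too start from the Braf vehicle values behind the choice of the family, which favors a rise, and are given without a p. Over all 12 lines it was higher in 9, with a mean change of 0.47 ± 0.23 that was not called (adjusted p = 0.141). In order of mean level the groups ran from Arid1a KO vehicle (73.1 ± 26.4 CPM) and CKI (68.6 ± 32.4) over Arid2 KO CKI (43.9 ± 19.6), Arid2 KO vehicle (31.3 ± 8.56), wildtype (30.6 ± 1.46), Braf CKI (10.2 ± 4.39) and Braf vehicle (3.98 ± 1.23) to Smarcb1 KO CKI (1.42 ± 0.403) and vehicle (1.27 ± 0.48). The first 5 overlap with their neighbors, as do the 2 Smarcb1 KO groups. Wildtype and Braf CKI, Braf CKI and Braf vehicle, and Braf vehicle and Smarcb1 KO CKI do not overlap.

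**Figure D2:**
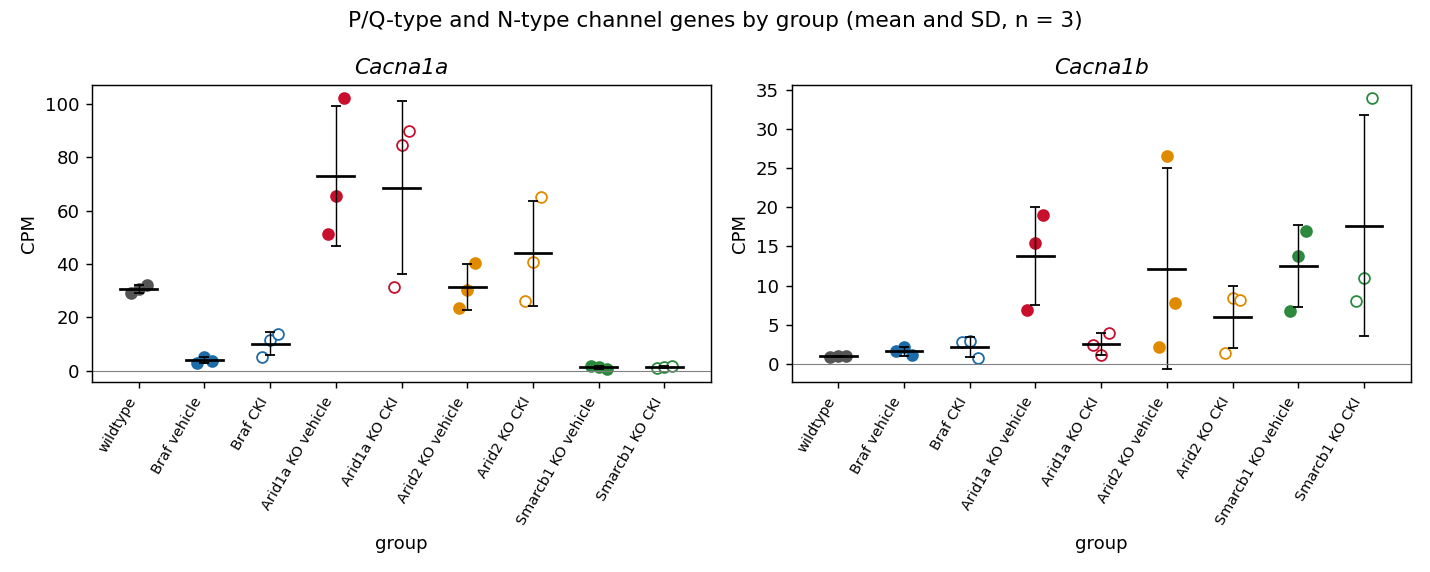
CPM of Cacna1a (left) and Cacna1b (right) in the 9 groups. Points are libraries (filled for vehicle and wildtype, open for CKI), thick bars are means and thin bars SD (n = 3). Cacna1a lies at 23.4 CPM or more in every Arid1a KO and Arid2 KO library and at 1.78 CPM or less in every Smarcb1 KO library, where Cacna1b lies at 6.74 CPM or more.

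Cacna1b, the pore of N-type channels, was higher in Smarcb1 KO than in Braf lines in both arms. In vehicle it was at 1.61, 2.22 and 1.08 CPM in Braf and at 6.74, 13.8 and 17 CPM in Smarcb1 KO lines, without overlap (2.93 ± 0.88, adjusted p = 0.0295). In the CKI arm Braf lines held 2.79, 2.96 and 0.746 CPM and Smarcb1 KO lines 8.08, 11 and 33.9 CPM, again without overlap (3 ± 0.88, adjusted p = 0.023). Neither call was stable to single lines. The vehicle call held without BS53736 and was lost without B47275 (adjusted p = 0.0941), B48051 (0.0603), B52482 (0.0834), BS53958 (0.0594) or BS53965 (0.0697). The CKI call was lost without B47275 (0.0643), B52482 (0.0804) or BS53965 (0.108) and in a fit of the compared groups alone (0.0868). Without both BS53958 and BS53965 neither passed (0.301 in vehicle and 0.326 under CKI).

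In vehicle, neuron markers summed to between 115 and 236 CPM in Smarcb1 KO vehicle libraries (3 to 5 of 8 markers over 1 CPM) and between 3.35 and 44.1 CPM in Braf vehicle libraries (0 to 2 of 8). Syt1 (62.9 ± 60.3 against 0.201 ± 0.06 CPM) and Nefl (94.5 ± 73.5 against 0.327 ± 0.522 CPM) carried the difference, while Tubb3 (18.6 ± 5.23 against 23.8 ± 20.8 CPM), Elavl4 (0.529 ± 0.678 against 1.24 ± 0.607 CPM) and Stmn2 (0.0305 ± 0.0266 against 0.326 ± 0.565 CPM) had lower means in Smarcb1 KO libraries. Under CKI, where Cacna1b was called as well, the sums overlapped (41.1 to 118 against 21.1 to 64 CPM). In Smarcb1 KO vehicle libraries the defining marker Rbfox3 was at a median of 0 and reached 1.08 CPM (0.359 ± 0.621 CPM). Their part in the result was not tested. In the other knockouts Cacna1b was at 6.87, 15.5 and 19 CPM in Arid1a KO vehicle libraries, above all 3 Braf libraries but not called (3.07 ± 0.89, adjusted p = 0.0603). In Arid2 KO lines it was at 2.16, 26.6 and 7.75 CPM in vehicle and 1.43, 8.44 and 8.11 CPM under CKI, of which the CKI values did not pass (1.48 ± 0.84, adjusted p = 0.558). Line AB52980 was the highest of the 3 in both arms.

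Cacna1b was lower under CKI than in vehicle in the Arid1a KO lines. Under CKI the 3 lines held 2.46, 1.16 and 4 CPM, each below its own vehicle library and all below the vehicle range. The fit with the line as a block called this fall (-2.44 ± 0.48, adjusted p = 0.00429), and the fit without it did not (-2.42 ± 0.86, adjusted p = 0.0662). Over the 12 lines Cacna1b was lower under CKI in 7, with a mean change of -0.65 ± 0.23 in the blocked fit (adjusted p = 0.0428) and of -0.64 ± 0.41 without the block (adjusted p = 0.264). The blocked call was lost without lines BS53958 and BS53965 (adjusted p = 0.115). Among the 9 groups, in order of mean level, Braf vehicle and wildtype (0.95 ± 0.063 CPM) were the sole neighbors without overlap.

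Cacna1e, the R-type pore, was rare. It reached 3.77 CPM in the CKI library of B52482 and was under 1 CPM in each of the other 26 libraries, 0.518, 0.853 and 0.537 CPM in wildtype included. No count fell on it in the vehicle libraries of Arid1a KO and Smarcb1 KO lines. Under CKI it was at 0.189, 0.0927 and 0.851 CPM in Arid1a KO lines (27 counts), at least 8.19-fold above a floor of 3 counts over the vehicle group.

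**Figure D3:**
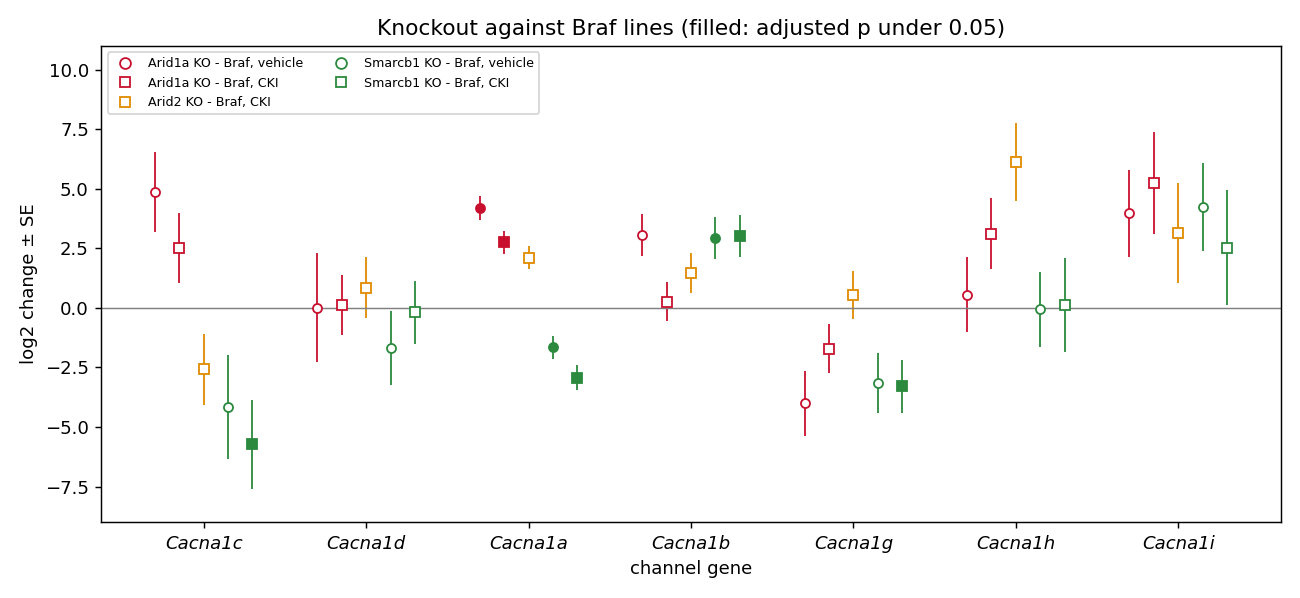
Log2 change (± SE) of the 7 tested members in knockout against Braf lines, by arm. Circles are vehicle and squares CKI, and filled symbols passed an adjusted p of 0.05. Cacna1a is filled above 0 in Arid1a KO (4.2 and 2.76) and below 0 in Smarcb1 KO (-1.66 and -2.93). Arid2 KO in vehicle, the contrast that chose the family, is left out. The other vehicle values of Cacna1a share its Braf libraries, so their filled symbols are a description.

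Among the L-type genes, Cacna1c, the pore of smooth and heart muscle L-type channels, was called higher under CKI over the 12 lines. In vehicle it was at 0.138, 0 and 0.98 CPM in Braf, 1.6, 28.4 and 2.82 CPM in Arid1a KO, 0.264, 0.459 and 0.137 CPM in Arid2 KO and 0, 0 and 0.0431 CPM in Smarcb1 KO lines. Under CKI it was at 0.53, 0.375 and 26.4 CPM, 19.3, 111 and 27.3 CPM, 0.259, 3.48 and 0.858 CPM, and 0.164, 0.247 and 0 CPM in the same order. It was higher in 10 of 12 lines, the exceptions being AB51189 and BS53965, and B52482 and the Arid1a KO lines held the 4 highest CKI values. The mean change was 3.09 ± 0.89 (adjusted p = 0.0171). Without the block it was not called without BS53736 (adjusted p = 0.07), BS53958 (0.0537) or both of BS53958 and BS53965 (0.113).

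Within genotypes Cacna1c was called with the block alone, higher in Arid1a KO lines (2.93 ± 0.56, adjusted p = 0.00398, against 0.3 without the block) and in Braf lines (4.08 ± 0.83, adjusted p = 0.0344, against 0.311). The Braf call was lost without BS53958 and BS53965 in the blocked fit (0.054). The level in Braf lines under CKI rested on B52482. Against Braf under CKI, Cacna1c was lower in Smarcb1 KO lines (-5.73 ± 1.87, adjusted p = 0.0352), from 7 counts in 3 libraries. That call was lost without B52482 (log2 change -1.43, adjusted p = 0.504), BS53736 (0.108), BS53958 (0.0996) or BS53965 (0.107), and without both of the last 2 (0.306). In Arid1a KO vehicle libraries Cacna1c lay above all Braf vehicle libraries without passing (4.85 ± 1.68, adjusted p = 0.111).

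The summed level of smooth muscle and pericyte markers was also higher under CKI outside the Smarcb1 KO lines. The sum was at most 14.6 CPM in the 12 vehicle libraries. Under CKI it was 207, 5.66 and 903 CPM in Braf, 37.1, 335 and 94.2 CPM in Arid1a KO, 58.3, 1340 and 966 CPM in Arid2 KO and at most 4.53 CPM in Smarcb1 KO lines, with 2 to 5 of the 7 markers over 1 CPM outside the Smarcb1 KO lines. B52482, BA47473 and AB52980, the lines with the most Cacna1c of their genotypes under CKI, also held the highest sums of those genotypes. Cacna1c was at 3.48 CPM in AB52980 and 0.858 CPM in AB55694, beside sums of 1340 and 966 CPM. Acta2, Tagln, Lmod1 and Cnn1 carried the sum. The pericyte marker Rgs5 had lower means under CKI in Arid2 KO (2.09 ± 2.8 to 0.191 ± 0.146 CPM) and Arid1a KO lines (1.31 ± 0.247 to 0.88 ± 0.756 CPM), and the defining marker Myh11 stayed at or under 0.848 CPM in the tumor lines. The part of these markers in the Cacna1c result was not tested.

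Cacna1d, the L-type pore of endocrine and sensory cells, was at or under 2.19 CPM in every tumor line library. In vehicle it ran from 0 (AB51189 and BS53965) to 1.25 CPM (AB52980), and under CKI from 0 (BS53965) to 2.19 CPM (AB55694). It was higher under CKI in 9 of 12 lines, lower in 2 and at 0 in both arms of BS53965. The mean change was 2.05 ± 0.69 (adjusted p = 0.0356). Cacna1d passed the filter on low counts through its CKI libraries, which favors a rise. The call rested on few counts, 69 in vehicle and 249 under CKI, and 8 of the 12 single-line fits lost it. The adjusted p was 0.0685 without BA47473, 0.0691 without BA49112, 0.0905 without AB55694, 0.0547 without B47275, 0.0518 without B48051, 0.11 without B52482, 0.367 without BS53736 and 0.0541 without BS53965. It was 0.0618 without both BS53958 and BS53965 and 0.0534 with no filter on low counts. In Arid1a KO and Smarcb1 KO lines in both arms and in Arid2 KO lines under CKI, Cacna1d did not pass against Braf lines.

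Cacna1s, the voltage sensor of skeletal muscle contraction, was at 29.6, 24.2 and 30.5 CPM in the wildtype libraries and at or near 0 in the tumor lines except 1. Line AB52980 held 1.67 CPM in vehicle and 23.9 CPM under CKI, and every other tumor line library held at most 0.13 CPM. Skeletal muscle markers moved with it. Their sum in AB52980 was 220 CPM in vehicle (6 of 8 over 1 CPM) and 2260 CPM under CKI (8 of 8, Acta1 at 917 and Myh1 at 580 CPM), against 2040 to 4240 CPM in the wildtype libraries and at most 7.91 CPM in the other 22 tumor line libraries. Cacna1s was not tested in the tumor lines. Cacna1f, the L-type pore of photoreceptors, was highest in wildtype at 0.363, 0.201 and 0.107 CPM and never exceeded 0.123 CPM in a tumor line.

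The T-type genes Cacna1g and Cacna1i moved in opposite directions under CKI. Cacna1g was at 0.369, 1.24 and 0.155 CPM in Braf, 0.0516, 0 and 0.0427 CPM in Arid1a KO, 0.132, 0.208 and 0.273 CPM in Arid2 KO and 0.0475, 0 and 0.129 CPM in Smarcb1 KO vehicle libraries. Under CKI it was at 3.32, 26.4 and 21.5 CPM in Braf, 0.604, 5.89 and 9.02 CPM in Arid1a KO, 6.1, 12 and 55.9 CPM in Arid2 KO and 0.738, 1.32 and 3.56 CPM in Smarcb1 KO lines. It was higher under CKI in 12 of 12 lines, and in each genotype the 2 arms do not overlap. The mean change was 5.91 ± 0.65 (adjusted p = 4.58e-05), and it was called under all 19 alternatives run, with log2 changes from 5.52 to 6.13. Cacna1g passed the filter on low counts through its CKI libraries (3360 counts, against 55 in vehicle), which favors a rise. A fit with no filter was among the alternatives. Fibroblast marker sums were higher under CKI in Braf lines (29.8, 5.15 and 173 CPM in vehicle, 1430, 21.8 and 2050 CPM under CKI) and in Arid2 KO lines (18.5 to 31.6 and 494 to 1140 CPM). In Arid1a KO lines they overlapped, at 3390, 1840 and 854 CPM in vehicle and 2470, 1850 and 4330 CPM under CKI. In Smarcb1 KO lines they were 4.04, 123 and 667 CPM in vehicle and 8.12, 67.6 and 112 CPM under CKI. The thyroid marker Tg went from 3.54 ± 3.36 to 177 ± 148 CPM in Braf and from 9.75 ± 3.95 to 240 ± 335 CPM in Arid2 KO lines. Under CKI, Cacna1g was at 3.32, 26.4 and 21.5 CPM in the Braf lines with fibroblast sums of 1430, 21.8 and 2050 CPM. The part of these markers in the changes of Cacna1g and Cacna1i was not tested.

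Within single genotypes Cacna1g was called in Arid1a KO lines (7.15 ± 1.43, adjusted p = 0.00511) and in Arid2 KO lines (6.88 ± 1.31, adjusted p = 0.0423). The Arid1a KO vehicle libraries held 2 counts against 355 under CKI, a ratio of 162 with a 95% counting interval from 44.4 to 1340. That call was lost without BA47473 (0.0568) or BA49112 (0.0677). The Arid2 KO call was lost without AB51189 (adjusted p = 0.281), AB52980 (0.139) or AB55694 (0.264), without BS53958 and BS53965 (0.0542), with no filter on low counts (0.0527) and in a fit of the compared groups alone (0.126), and held in the blocked fit (adjusted p = 0.00463). In Braf lines (4.73 ± 0.76, adjusted p = 0.0164 against 0.175 without the block) and Smarcb1 KO lines (4.87 ± 0.99, 0.049 against 0.184) it was called with the line block. The Smarcb1 KO value was 3.82 without BS53958 and BS53965, where it did not pass (adjusted p = 0.503). Against Braf under CKI, Cacna1g was lower in Smarcb1 KO lines (-3.29 ± 1.12, adjusted p = 0.0418), though the ranges overlap. That call was lost without B48051 (0.0852), B52482 (0.0751), BS53736 (0.132), BS53958 (0.117), BS53965 (0.0503) or both of the last (0.181), with no filter (0.0535) and with only the compared groups (0.106).

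Cacna1i was at 22.6, 38.7 and 15.7 CPM in Arid1a KO, 12.6, 20.1 and 16.3 CPM in Arid2 KO, 21.6, 0 and 70.6 CPM in Smarcb1 KO and 0.184, 0.0515 and 4.64 CPM in Braf vehicle libraries. Under CKI it was at 0.68, 0.0464 and 5.79 CPM in Arid1a KO, 0.13, 0.313 and 1.07 CPM in Arid2 KO, 0.123, 0 and 1.49 CPM in Smarcb1 KO and 0.0706, 0 and 0.0829 CPM in Braf lines. It was lower under CKI in 11 of 12 lines. The exception, BS53958, had no Cacna1i count in either arm. The mean change was -4.96 ± 1.01 (adjusted p = 0.00214), called under all 19 alternatives run, with log2 changes from -5.65 to -4.17.

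Within genotypes Cacna1i was called lower with the line block in Arid1a KO (-4.6 ± 1.25, adjusted p = 0.0205, against 0.187 without the block) and Arid2 KO lines (-5.25 ± 1.17, 0.0336 against 0.261). The Arid2 KO call was lost in the blocked fit without BS53958 and BS53965 (0.0525). In Smarcb1 KO lines the blocked change of -6.41 ± 1.57 did not pass (adjusted p = 0.0932). In vehicle all 3 Arid1a KO libraries lay above all Braf libraries (3.98 ± 1.83), which did not pass (adjusted p = 0.238), nor did Smarcb1 KO (4.22 ± 1.85, adjusted p = 0.116), where the lines spread from 0 to 70.6 CPM. The Arid2 KO vehicle libraries also lay above all Braf vehicle libraries, in the contrast given as a description.

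Per kb of transcript, Cacna1i was above Cacna1g in 9 of 12 vehicle libraries, below it in B47275 and B48051 and equal, at 0, in BS53958. Under CKI Cacna1g was above Cacna1i in 12 of 12 libraries, by little in BA45198 (0.0721 against 0.0695 CPM per kb, from 34 counts). This comparison within libraries was chosen after the values were seen. Over the 24 tumor line libraries the Pearson correlation of their log2 CPM was -0.57, which includes the shift between the arms.

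**Figure D4:**
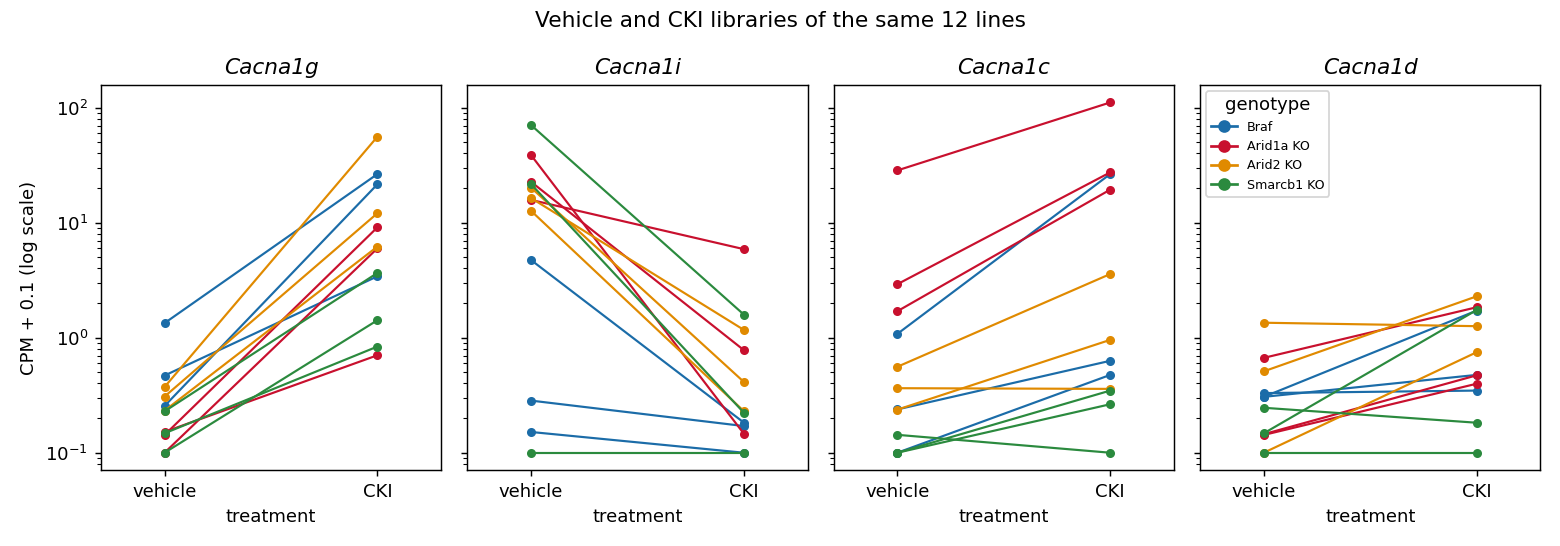
CPM + 0.1 (log axis) of Cacna1g, Cacna1i, Cacna1c and Cacna1d in the vehicle and CKI libraries of the 12 lines. Each line joins the 2 libraries of 1 cell line, colored by genotype. Cacna1g goes up in 12 of 12 lines, Cacna1i goes down in 11 and stays at 0 in BS53958, and Cacna1c goes up in 10.

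Cacna1h, the third T-type gene, was found mainly in Arid2 KO lines. It was at 0.044, 8.21 and 8.57 CPM there in vehicle and at 3.11, 6.43 and 7.25 CPM under CKI. The CKI values lie above every library of the other 3 genotypes, but against Braf under CKI (0.177, 0 and 0.0414 CPM) the change of 6.12 ± 1.64 did not pass (adjusted p = 0.176). In the other 3 genotypes Cacna1h reached at most 1.57 CPM. It passed the filter on low counts through its Arid2 KO libraries, which favors a higher level there. CKI and vehicle did not differ past the threshold in any genotype, and the mean change was 0.6 ± 0.8 (adjusted p = 0.616). Among the Arid2 KO lines AB51189 went from 0.044 CPM in vehicle to 3.11 CPM under CKI, while the other lines stayed between 6.43 and 8.57 CPM.

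Against wildtype, 6 of the 9 members tested were called lower in Braf vehicle libraries, where 46.5% of all genes tested were called. The count is a description, since Cacna1s and Cacna1e passed the filter through their wildtype counts, which fixes a direction, and Cacna1a was compared with the Braf values behind the choice of the family. Cacna1a was at 29.1, 30.5 and 32 CPM in wildtype (log2 change -2.94 ± 0.46, given without a p). Cacna1d fell from 19, 15.2 and 17.3 CPM to at most 0.23 CPM (-6.28 ± 1.48, adjusted p = 0.002). Cacna1c (8.49, 6.37 and 8.76 CPM in wildtype, change -4.39 ± 1.56, adjusted p = 0.027), Cacna1g (8.08, 5.62 and 5.48 CPM, -3.44 ± 1.06, adjusted p = 0.0121) and Cacna1h (2.75, 1.91 and 3.17 CPM, -4.9 ± 1.49, adjusted p = 0.0115) were lower as well. None of these 5 overlaps between the groups. Cacna1s had 1 count over the 3 Braf vehicle libraries and 1622 in wildtype, a ratio of 1700 with a 95% counting interval from 304 to 67000. Cacna1e had 6 counts against 37. Cacna1b (0.78 ± 0.81, adjusted p = 0.448) and Cacna1i (4.82 ± 2.11, 0.0671) did not pass, the last with 3 counts in wildtype and 90 of its 95 Braf counts in B52482. Cacna1c was lost without B47275 (0.0733) or B48051 (0.0588), and Cacna1g without B52482 (0.0571).

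The wildtype libraries held more RNA of several other cell types than the Braf vehicle libraries. In wildtype, skeletal muscle markers summed to between 2040 and 4240 CPM (1.5 to 5.62 in Braf vehicle), C cell and neuroendocrine markers to between 2530 and 4410 CPM (7.07 to 37.5), endothelial markers to between 448 and 667 CPM (0.412 to 3.15) and parathyroid markers to between 69.4 and 1980 CPM (0 to 0.461). Smooth muscle markers summed to between 544 and 745 CPM and fibroblast markers to between 1800 and 3640 CPM (2.94 to 14.6 and 5.15 to 173 in Braf vehicle). Leukocyte markers stood at 72.7 to 114 CPM, against 2.72 to 4.33 CPM. Some tumor line libraries outside this comparison reached wildtype levels, as with the endothelial sum of 666 CPM in BS53965 vehicle and the fibroblast sums of 854 to 4330 CPM in Arid1a KO lines. The part of these markers in the lower members was not tested. With RLE scaling, the median change over all genes moved from 0.02 to -0.14 in this comparison, and 6 members were again called.

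Auxiliary subunits were followed in a list of 16 genes (beta, alpha-2-delta and gamma), of which 11 were tested in the tumor lines. Over the 12 lines under CKI, 1 of 11 was called higher (27.2% of all genes were called), the beta subunit Cacnb1 (1.51 ± 0.34, adjusted p = 0.00408). The median change of the list was 1.47, beside 0.03 over all genes. With the line block 5 were higher and 1 lower, where 42.9% of all genes were called, with Cacnb1 (adjusted p = 0.00084), the gamma subunit Cacng7 (2.38 ± 0.44, 0.00256), Cacna2d3 (2.03 ± 0.49, 0.00792) and Cacnb3 (0.41 ± 0.12, 0.0204) leading. Of these, Cacna2d3 passed the filter on low counts chiefly through its CKI libraries, which favors a rise. Cacnb1 went from 2.04 ± 0.901 to 4.85 ± 1.07 CPM in Braf and from 1.35 ± 0.443 to 5.31 ± 2.21 CPM in Arid1a KO lines. In Smarcb1 KO against Braf vehicle libraries, the beta subunit Cacnb2 was at 0.0754 ± 0.0672 against 7.48 ± 2.05 CPM (-6.52 ± 1.25, adjusted p = 0.00261) and stayed lower under CKI (-5.31 ± 1.29, adjusted p = 0.00914). Cacna2d4 was also called lower there in both arms, at 0 against 0.793 ± 1.15 CPM in vehicle and 0.0548 ± 0.0474 against 1.86 ± 2.21 CPM under CKI. In Braf vehicle libraries 1 of the 3 held 2.12 CPM and the median was 0.155 CPM, and no line was left out in turn for the genes of this list. Cacna2d4 passed the filter on low counts through its Braf libraries, which favors a lower call in both arms. Cacna2d2 was higher in vehicle, at 0.333 ± 0.342 CPM against no count in Braf. It needed its Smarcb1 KO libraries to pass the filter, which favors a rise. Against wildtype, 2 of 13 were higher and 5 lower in Braf vehicle libraries (median -3.19, beside 0.02, with 46.5% of all genes called), with Cacnb3 higher (2.89 ± 0.37, adjusted p = 6.26e-06) and Cacna2d2 going from 20.8 ± 3.41 CPM to no count.

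Of 14 regulators (small GTPases of the Rem and Gem group, Stac adaptors and others), 12 were tested. Over the 12 lines under CKI the alpha-2-delta-like gene Cachd1 was higher (1.28 ± 0.42, adjusted p = 0.0321). The adaptor Stac2 binds L-type channels. Its vehicle mean was higher in Arid1a KO than in Braf lines (4.92 ± 4.62 against 0.166 ± 0.182 CPM, change 4.85 ± 1.21). With CKI the Arid1a KO mean fell to 0.0662 ± 0.059 CPM (-6.05 ± 1.3). Stac2 passed the filter on low counts through its Arid1a KO vehicle libraries, where it ran from 1.45 to 10.2 CPM. That favors both the higher level and the fall, so no p is given. In Smarcb1 KO against Braf lines, Stac3 was higher in vehicle (5.3 ± 1.5, adjusted p = 0.0227). Rem2, which inhibits these channels, was at 0.129 ± 0.148 against 14.1 ± 18.5 CPM in vehicle (-6.73 ± 1.96). Under CKI it was at 0.0411 ± 0.0412 against 5.57 ± 7.66 CPM (-6.63 ± 2.16). Braf vehicle libraries spread from 0.258 to 35.1 CPM and overlapped those of Smarcb1 KO, which reached 0.291 CPM. Rem2 passed the filter on low counts mainly through Braf libraries, which favors a fall, so no p is given. Against wildtype 1 of 13 was higher and 3 lower in Braf vehicle libraries (median -1.45, beside 0.02, with 46.5% of all genes called), Rem1 among the lower. Rem1 had 1 count there and 410 in wildtype (-8.31 ± 1). It passed the filter through its wildtype counts, which fixes a direction, so no p is given. In the other lists the same holds for genes tested against wildtype but not in the tumor lines.

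Of 21 other calcium genes (store-operated entry, store release, pumps and exchangers), 19 were tested. Under CKI 2 were higher and 5 lower over the 12 lines, a share near the 27.2% of all genes called. The store sensor Stim1 was higher (1.15 ± 0.21, adjusted p = 0.00115), and the release channel Itpr3 (-1.08 ± 0.21, 0.00147), the pump Atp2a3 (-2.65 ± 0.61, 0.00452) and the second sensor Stim2 (-0.58 ± 0.14, 0.00615) were lower. Atp2a3 passed the filter on low counts through its vehicle libraries, which favors a fall. In Smarcb1 KO against Braf vehicle libraries 4 of 19 were lower, where 18.1% of all genes were called. Among them were the entry channel Orai1 (6.4 ± 0.874 against 24.2 ± 6.21 CPM, adjusted p = 0.000732) and the release channel Itpr2 (22.9 ± 12.4 against 108 ± 27.8 CPM, adjusted p = 0.0013). In Arid1a KO vehicle libraries the plasma membrane pump Atp2b4 was lower, at 0.662 ± 0.217 against 34.3 ± 33.4 CPM (adjusted p = 0.0382). List medians in these comparisons, -0.53 for Smarcb1 KO and 0.07 for CKI, stood beside -0.02 and 0.03 over all genes. Against wildtype 4 of 21 were higher and 8 lower in Braf vehicle libraries (median -0.79, with 46.5% of all genes called), with Itpr3 higher (2.7 ± 0.42, adjusted p = 5.37e-05) and the muscle pump Atp2a1 lower (-10.88 ± 2.37, adjusted p = 0.00106).

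The genes whose log2 CPM followed each member most closely over the 24 tumor line libraries, among 13266 or 13267 candidates, are given as a description. The libraries share lines and treatment, so the points are not independent. For Cacna1a they were Runx3 (r = 0.91), Rassf8 (0.898) and Baalc (0.888), and for Cacna1g Scube3 (0.888), Scel (0.882) and Fgfr2 (0.868). Cacna1i was followed by Spry2 (0.837), Heatr5a (0.832) and Klhdc2 (0.824), and Cacna1c by Ces1g (0.886), Fbn1 (0.875) and Traf3ip3 (0.875). Cacna1d was followed by Il17rb (0.876), Chdh (0.818) and Gmpr (0.797), Cacna1h by Filip1 (0.808), Acss2 (0.795) and Igdcc4 (0.79), and Cacna1b by Thyn1 (0.79), Riok2 (0.779) and Evi2a (0.767). Among the members themselves the highest value was 0.7, between Cacna1a and Cacna1c.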

How the data were processed

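Per the labels, TRIzol was used for the RNA and TruSeq for the libraries. The authors deposited raw counts by gene symbol, with a column for each library. Per the submitters' processing notes, mm9, STAR 2.4, HTSeq 0.6.1 and DESeq2 were used, with no role stated. With annotation, filters and strandedness not given in the sources used here, reads of overlapping genes could not be told apart.

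Counts were fitted in R 4.3.3 with edgeR 4.0.16 (filterByExpr by group, TMM, quasi-likelihood F test, Benjamini-Hochberg over all genes). The 24 tumor line libraries shared 1 fit (15634 genes), and all 27 entered the wildtype comparison (16821 genes). CPM values were computed from the counts on TMM-scaled sizes of the 27-library fit. SE was derived from the F statistic and is approximate. A group with no count was set to a floor of 3 counts over the group, and floors and intervals (95%, exact conditional) cover counting error only. The pipeline was tested on simulated data.

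Vehicle and CKI libraries share cell lines. After group means were removed, those of 1 line correlated with r from 0.259 to 0.773 in all 12 lines, so a fit with the line as a block (8 residual degrees of freedom) was added. The fit without the block treats the libraries of 1 line as independent of each other. Other alternatives were RLE size factors, DESeq2 1.42.0, no filter, a minimum of 1 CPM in 6 or more libraries, a fit of the compared groups alone, each line left out, and lines BS53958 and BS53965 left out. The blocked fit without those lines was chosen after seeing the data.

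The members, the 3 pathway lists and the 9 marker lists were chosen with earlier results of these data known. Of 111 list genes 110 were found. The text names all members, at most 4 called genes per list and comparison (smallest adjusted p first), and the 3 genes most like each tested member. A gene of the regulator list is not reported here. No list was tested as a set. Transcript lengths are from GENCODE vM21, which is of another build than the authors' mm9.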

Additional observations from a re-analysis of the deposited data

How the results depend on the processing

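Of the members' log2 changes recomputed under the alternatives, 289 kept their direction and side of the threshold, 58 were no longer past it, 17 came past it and 0 reversed. Of the mean levels 174 moved by less than 1 SD, and 6, all in wildtype, moved by more with another scaling of the libraries. With the line as replicate block, the counts of members called under CKI became 3 in Braf, 4 in Arid1a KO, 2 in Arid2 KO and 1 in Smarcb1 KO lines, and they were 1, 5, 1 and 0 in the same order when BS53958 and BS53965 were left out as well. The block changed no other call among the members than those given in the report. DESeq2 called 4 members in Arid1a KO and Braf vehicle libraries, 2 in Arid2 KO against Braf under CKI, and for CKI against vehicle 1 in Braf, 2 in Arid1a KO and 2 in Smarcb1 KO lines. In a fit of the compared groups alone, 1 member was called in Smarcb1 KO against Braf in vehicle and 1 under CKI, 0 in Arid1a KO against Braf under CKI, and for CKI against vehicle 2 in Arid1a KO and 0 in Arid2 KO lines. Without lines BS53958 and BS53965, 0 were called in Smarcb1 KO against Braf in vehicle, 1 under CKI, 2 for the mean CKI change and 0 for CKI in Arid2 KO lines, where no filter also gave 0. With each line left out in turn, the counts ran from 1 to 2 for Arid1a KO and from 0 to 2 for Smarcb1 KO against Braf in vehicle, and under CKI from 0 to 2 for Arid1a KO, 0 to 1 for Arid2 KO and 1 to 3 for Smarcb1 KO. For CKI against vehicle they ran from 0 to 1 in Arid1a KO, 0 to 0 in Arid2 KO and 2 to 5 for the mean change. Over all genes DESeq2 called 1573 genes in Arid1a KO against Braf in vehicle where edgeR called 567, under CKI 971 against 115 for Arid1a KO and 438 against 10 for Arid2 KO, and for CKI against vehicle 315 against 0 in Braf, 3411 against 2177 in Arid1a KO, 574 against 22 in Arid2 KO and 301 against 5 in Smarcb1 KO lines. With the block edgeR called 388, 5053, 981 and 165 genes in these genotypes and 6707 against 4253 for the mean change. The cause of these moves was not tested. Leaving out lines leaves fewer samples, and with BS53958 and BS53965 out the Smarcb1 KO arm holds 1 line, assumed to vary like the others. Members under about 1 CPM rest on few counts, and the CKI library of BS53965 is the shallowest.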
